A study of Rattus norvegicus with 16 samples.

Results

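Knee cartilage of rats was examined here for the 7 genes that encode the collagen chains of the cartilage fibril: Col2a1, Col9a1, Col9a2, Col9a3, Col11a1, Col11a2 and Col27a1. They were taken by name from a table of 23552 genes, and all 7 were present, each on 1 row. RNA sequencing covered 16 libraries in 4 groups of 4, all from rats of 10 weeks. The groups were healthy cartilage (library names beginning Sham), osteoarthritic cartilage (PBS), and osteoarthritic cartilage that had received either hyaluronic acid (HA, library names beginning HCD) or a coacervate (CCD), in both cases together with cells and a drug. The labels name neither the drug, the cells, the make-up of the coacervate nor the way osteoarthritis was brought about. They do not say whether each replicate was a separate rat, so the p-values measure the spread between these samples, which may be partly technical.

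Type II collagen, a trimer of identical chains from Col2a1, is the bulk of the fibril network that gives cartilage its tensile strength. Type XI collagen, built from the chains of Col11a1 and Col11a2 with a modified Col2a1 chain, lies within the fibril, where it starts assembly and limits the diameter. Type IX collagen, a trimer of the Col9a1, Col9a2 and Col9a3 chains, sits on the fibril surface and links it to other fibrils and to the surrounding proteoglycan matrix. Col27a1 encodes a separate fibrillar collagen found in cartilage, mainly where it calcifies. Inherited changes in genes of types II, IX and XI cause skeletal dysplasias, some with early joint disease.

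On build rn6, as the table gives it, Col2a1 (ENSRNOG00000058560) at chr7:139455242-139483997 lies on the minus strand. The other genes lie on the plus strand. Those of type XI are Col11a1 (ENSRNOG00000023148) at chr2:216863428-217056523 and Col11a2 (ENSRNOG00000000463) at chr20:3830164-3859018. Those of type IX are Col9a1 (ENSRNOG00000012920) at chr9:30419001-30502298, Col9a2 (ENSRNOG00000011502) at chr5:139963002-139979864 and Col9a3 (ENSRNOG00000009531) at chr3:176102351-176124306. The last is Col27a1 (ENSRNOG00000007657) at chr5:79055521-79170765. They lie on 6 chromosomes, so the chains of 1 trimer are not neighbours.

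Total counts ranged from 36988722 to 50725189 per library, and 10.2 to 22.2% of them came from haemoglobin genes. On the first principal component, osteoarthritic replicates 2 and 3 were set apart, with scores of 69.6 and 58.9 against -32.3 to 12.7, and that component held 32.5% of the variance. The chondrocyte markers, a list of 12 genes that holds none of the collagens described here, were all detected and summed to between 1111 and 2654 CPM (counts scaled to library size). Markers of osteoblasts and osteocytes summed to between 9301 and 18979 CPM over 12 genes, Col1a1 among them. No marker list had a gene at 0 in all libraries. Col1a1, the main collagen of bone and fibrous tissue, exceeded Col2a1 in FPKM (fragments scaled to transcript length and library size) in all 16 libraries, by 2.95 to 8.06 times. RNA of genes known from bone, blood and muscle was thus present beside that of cartilage, and the share of each tissue was not measured.

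The 7 genes spanned a wide range of abundance, compared here per length as deposited FPKM. Col2a1 was highest in every library, at 169 to 593 FPKM (median 382), and its mean ranked 143 among the 14337 genes tested. Col11a1 came next at 24.3 to 86.5 FPKM and exceeded Col11a2 (21.2 to 52.0 FPKM) in 16 of 16 libraries. Col11a2 and Col9a3 (8.65 to 53.9 FPKM) were not ordered, since Col11a2 was the higher in 9 of 16. Among the type IX chains, Col9a3 exceeded Col9a2 (6.24 to 35.2 FPKM) in 16 of 16 libraries, whereas Col9a2 exceeded Col9a1 (5.00 to 37.1 FPKM) in 11 of 16. Col27a1 was lowest at 4.19 to 13.9 FPKM and lay below Col9a1 in 15 of 16 libraries. The smallest count behind any of these values was 979, so counting error was small beside the spread between libraries. From the lowest to the highest library, Col11a2 varied least, by 2.46 times, and Col9a1 most, by 7.42 times.

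For Col2a1, normalised to the effective library size, the healthy libraries held 1605, 1819, 2658 and 1204 CPM in replicates 1 to 4, and the osteoarthritic libraries 2804, 1090, 1234 and 2715 CPM. The HA-treated libraries held 2080, 2015, 3069 and 1989 CPM, and the coacervate-treated libraries 2139, 1387, 1134 and 1793 CPM. The osteoarthritic libraries fell into a high pair and a low pair, the low pair being the same replicates 2 and 3 that stood apart over all genes, and every group overlapped with every other. Group means were 1822 ± 613 (healthy), 1961 ± 925 (osteoarthritic), 2288 ± 522 (HA) and 1613 ± 443 CPM (coacervate; SD, n = 4 each). For all 7 genes, each step between neighbouring group means was smaller than the larger of the SDs on either side of it. The coacervate group had the lowest mean of all 7 genes, and the HA group the highest of every one except Col27a1, whose mean was highest in the osteoarthritic group.

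**Figure D1:**
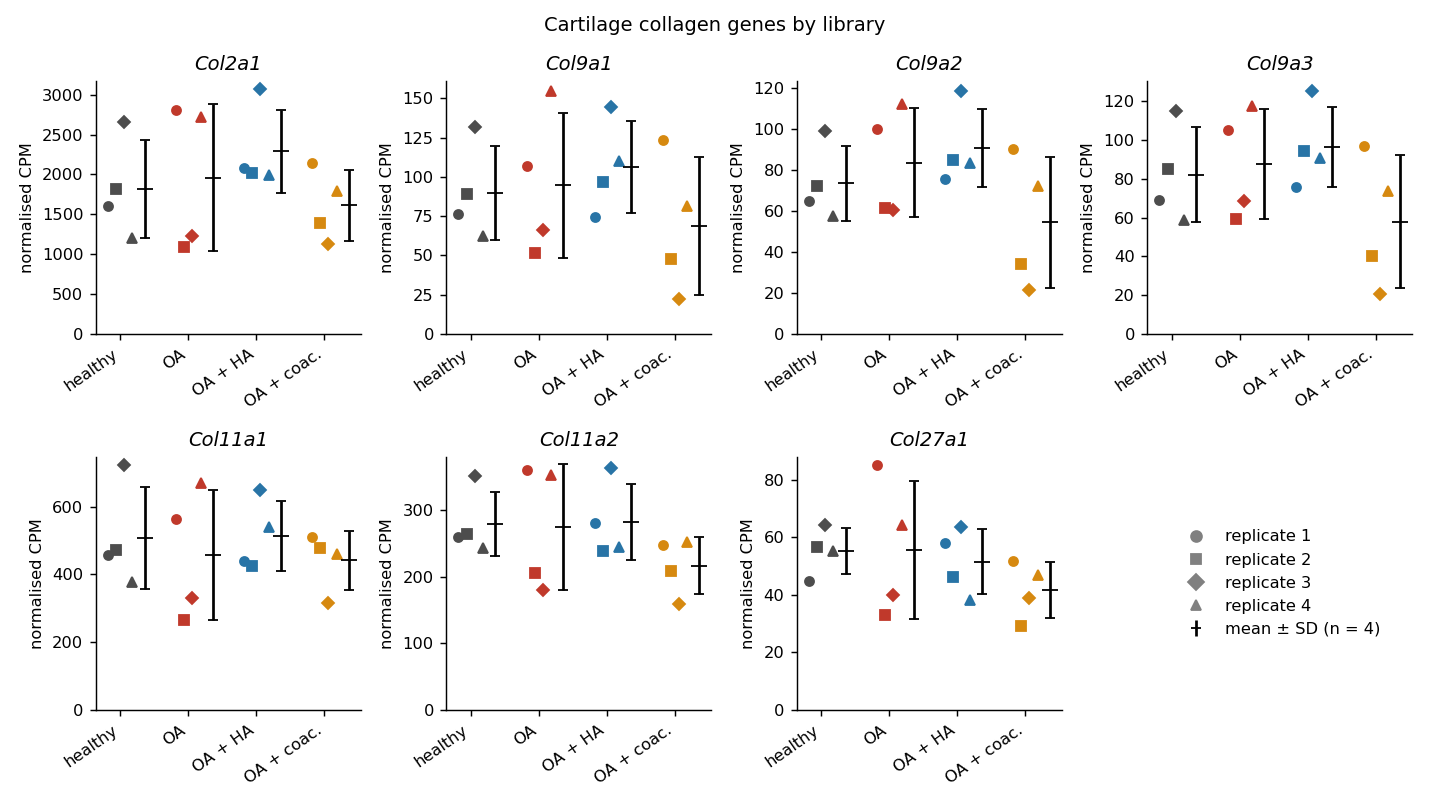
Normalised CPM (y axis, from 0) of the 7 collagen genes in the 4 groups, with 1 point per library, the replicate number as marker shape, and a bar for the mean ± SD of 4 libraries. OA stands for osteoarthritic, HA and coac. for the treatments given with cells and drug. Groups overlap in every panel, osteoarthritic replicates 2 and 3 lie below replicates 1 and 4, and coacervate replicates 2 and 3 have the lowest values of Col9a1, Col9a2 and Col9a3 of all 16 libraries.

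Between osteoarthritic and healthy cartilage, none of the 7 genes passed edgeR's quasi-likelihood test on counts, fitted to all 16 libraries with Benjamini-Hochberg adjustment over 14337 genes and a threshold of 0.05. Among all genes 0.502% passed in this comparison (72 genes), and 2548 genes had an unadjusted p under 0.05, none of them among the 7. Col2a1 had a log2 fold change of 0.11 ± 0.32 (SE) with a 95% interval of -0.58 to 0.79, that is 0.671 to 1.73 times the healthy level. The 7 log2 fold changes ran from -0.15 (Col11a1) to 0.19 (Col9a2), with a median of 0.08 beside 0.01 over all genes, and adjusted p from 0.783 to 0.986 (edgeR). The widest of the 7 intervals was that of Col9a1, -0.84 to 0.99, and the narrowest that of Col11a2, -0.51 to 0.46. No collagen had groups without overlap, against 6.33% of all genes. Without osteoarthritic replicates 2 and 3, Col11a1 and Col11a2 turned from -0.15 and -0.03 to 0.28 and 0.35, and neither passed. For Col2a1, osteoarthritic replicates 1 and 4 held 2804 and 2715 CPM, above every healthy library (1204 to 2658 CPM). Osteoarthritic replicates 2 and 3 held 1090 and 1234 CPM. Leaving out single libraries moved the Col2a1 log2 fold change between -0.12 and 0.35. In tissue of this kind, a difference in chondrocyte number and a difference in collagen RNA per chondrocyte cannot be told apart.

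Fibroblast and synovium markers did not overlap between these 2 groups: their sum over 8 genes was 1258 to 1966 CPM in the healthy libraries and 2522 to 5488 CPM in the osteoarthritic ones. The chondrocyte markers summed to 1111 to 1385 CPM in healthy and 1118 to 2490 CPM in osteoarthritic libraries. The osteoblast and osteocyte sum was 9364 and 9301 CPM in osteoarthritic replicates 2 and 3 and 18243 and 18979 CPM in replicates 1 and 4. Col1a1, 1 of its 12 genes, made up most of each sum, at 5492 and 5443 CPM against 13937 and 15697 CPM in the same order. This split, the same as for Col2a1, was thus largely that of Col1a1 within that list. Some other sums were also lower in replicates 2 and 3 than in 1 and 4. The chondrocyte sum was 1118 and 1396 against 2490 and 1982 CPM, and the fibroblast and synovium sum 2522 and 3251 against 4940 and 5488 CPM. The tendon and ligament sum was 182 and 218 against 326 and 324 CPM, and the endothelial sum 112 and 143 against 194 and 157 CPM. Hypertrophic chondrocyte, skeletal muscle and osteoclast sums did not split this way. The osteoclast sum was 1799 to 2407 CPM in healthy and 1306 to 1624 CPM in osteoarthritic libraries, again without overlap. Ctsk and Acp5 made up most of it, with means of 1068 and 850 CPM in healthy and 821 and 620 CPM in osteoarthritic libraries. Dcstamp and Ocstamp also had lower osteoarthritic means. Calcr, Atp6v0d2 and Oscar had higher ones, at 2.27, 36.5 and 8.10 against 1.88, 33.3 and 8.04 CPM. Erythroid, neutrophil and adipocyte markers followed the split within the osteoarthritic group in the opposite direction. Macrophage markers were lower in replicates 2 and 3, the direction of Col2a1, and B cell markers did not follow the split. The erythroid sum was 250941 and 233497 CPM in replicates 2 and 3 and 119437 and 97757 CPM in replicates 1 and 4. The neutrophil sum was 19171 and 12586 CPM against 5848 and 7498 CPM in the same order, and the adipocyte sum 972 and 1324 CPM against 503 and 214 CPM. The macrophage sum was 818 and 951 CPM in replicates 2 and 3 and 1047 CPM in both replicates 1 and 4. For B cell markers it was 288 and 296 CPM in replicates 2 and 3 and 323 and 180 CPM in replicates 1 and 4. The part of these tissues in the collagen values was not tested.

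HA with cells and drug left none of the 7 genes past the threshold relative to osteoarthritic cartilage. The share called among all genes was 0% (edgeR), with 909 genes at an unadjusted p under 0.05, while DESeq2 called 8 genes and limma on log2(FPKM + 1) called 1. Col2a1 had a log2 fold change of 0.22 ± 0.32 (95% interval -0.46 to 0.91), and the 7 values ran from -0.11 (Col27a1) to 0.22, with adjusted p from 0.884 to 0.972 (edgeR). Their median was 0.14 beside -0.01 over all genes. None of the 7 was free of overlap, against 1.9% of all genes. Without osteoarthritic replicates 2 and 3, Col2a1 was at -0.27 and Col11a2 at -0.34 in place of 0.22 and 0.04, and neither passed.

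Coacervate with cells and drug gave log2 fold changes below 0 for all 7 genes relative to osteoarthritic cartilage, and none passed the test. The values were -0.28 ± 0.32 for Col2a1, -0.05 ± 0.27 for Col11a1, -0.34 ± 0.23 for Col11a2 and -0.42 ± 0.26 for Col27a1 (SE). For the type IX chains they were -0.47 ± 0.43 (Col9a1), -0.62 ± 0.35 (Col9a2) and -0.60 ± 0.37 (Col9a3), with 95% intervals reaching up to 0.45, 0.14 and 0.19. Adjusted p ran from 0.308 (Col9a2) to 0.928 (Col11a1) by edgeR, and no collagen had an unadjusted p under 0.05, against 3131 genes of the table. The share called among all genes was 0.146% (21 genes), and 5.6% of all genes, but none of the 7, had groups without overlap. The median over the collagens was -0.42 beside -0.01 over all genes. Osteoarthritic replicates 1 and 4, at 2804 and 2715 CPM of Col2a1, lay above every coacervate-treated library (1134 to 2139 CPM). Replicates 2 and 3 of that group were at 1090 and 1234 CPM. Leaving out single libraries moved the Col2a1 log2 fold change between -0.49 and -0.063. The 7 genes vary together between libraries, as shown further on, so their common sign is not 7 separate observations.

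**Figure D2:**
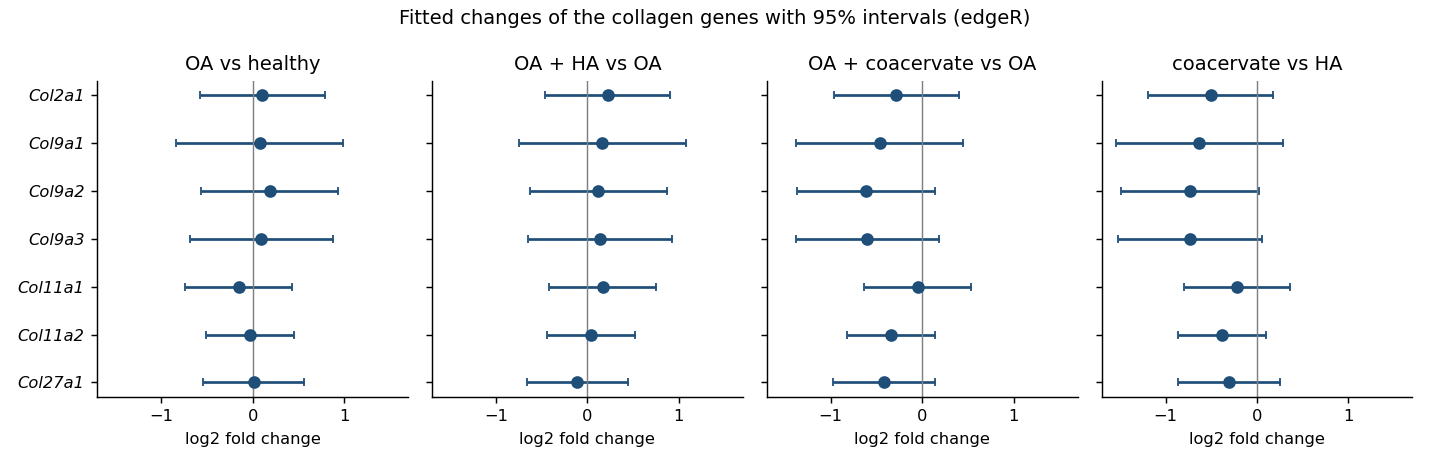
Log2 fold change (x axis) with its 95% interval for each collagen gene (y axis) in 4 comparisons, from edgeR on counts of all 16 libraries. Every interval includes 0. All points of both coacervate panels lie left of 0, from -0.62 to -0.05 against osteoarthritic and from -0.74 to -0.22 against HA.

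Against HA, the other carrier with the same addition of cells and drug, the coacervate values ran from -0.74 (Col9a3) to -0.22 (Col11a1). The smallest unadjusted p was 0.0554 for Col9a2, with a log2 fold change of -0.73 ± 0.35 and an adjusted p of 0.501 (edgeR). The share called among all genes was 0%, with 1485 genes at an unadjusted p under 0.05, although DESeq2 called 325 genes and limma 0. Groups without overlap made up 9.71% of all genes and included no collagen. Both this comparison and the one before it use the same coacervate libraries, so they are not independent of each other.

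Relative to healthy cartilage, none of the 7 genes passed in either treated group. In the HA group adjusted p ran from 0.955 to 0.999, beside 0.16% of all genes called. In the coacervate group it was 0.9998 for each gene, beside 0% called and 552 genes at an unadjusted p under 0.05 (DESeq2 called 18, limma 0). A test for any difference among the 4 groups gave adjusted p from 0.560 to 0.912 for the collagens, where 0.293% of all genes passed.

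The type IX genes had their lowest values in the coacervate group. Col9a1 was at 123, 48.0, 22.2 and 81.3 CPM in coacervate replicates 1 to 4, against 51.4 to 154 CPM in the other 3 groups. Col9a2 was at 90.0, 34.2, 21.5 and 72.0 CPM, against 57.5 to 118 CPM elsewhere. Col9a3 was at 97.3, 40.1, 20.6 and 73.8 CPM, against 59.0 to 125 CPM elsewhere. Coacervate replicates 2 and 3 were thus the 2 lowest of the 16 libraries for each type IX chain, while replicates 1 and 4 lay inside the range of the other groups. Col11a1 in the same 4 libraries was at 511, 479, 316 and 460 CPM, and replicate 2 was not low there, the other groups spanning 264 to 725 CPM. Col11a2, at 248, 209, 159 and 252 CPM, was lowest of all 16 in replicate 3, and Col27a1, at 51.6, 29.2, 38.9 and 46.9 CPM, was lowest of all in replicate 2.

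Because a ratio within a library does not depend on how libraries are scaled, each gene was also set against Col2a1 as a log2 ratio of FPKM. In coacervate replicates 2 and 3 the ratio was -4.60 and -5.42 for Col9a1, -4.72 and -5.10 for Col9a2, and -3.96 and -4.63 for Col9a3. In the healthy group the same ratios averaged -4.08 ± 0.05, -3.99 ± 0.15 and -3.30 ± 0.09 (SD, n = 4). The type IX ratios of those 2 libraries were below those of all the others. The Col11a1 ratio in them, -2.29 and -2.60, was not, the healthy mean being -2.59 ± 0.12. In replicate 2 that Col11a1 ratio was the highest of all libraries. Over whole groups, coacervate minus osteoarthritic was -0.41, -0.59 and -0.58 for Col9a1, Col9a2 and Col9a3, with p = 0.314, 0.143 and 0.143 (two-sided exact permutation test, 4 against 4). For Col11a1 it was 0.22 (exact p = 0.200). None of 27 ratio comparisons had an unadjusted p under 0.05, the lowest adjusted p was 0.579, and the design cannot give an exact p below 0.0286.

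**Figure D3:**
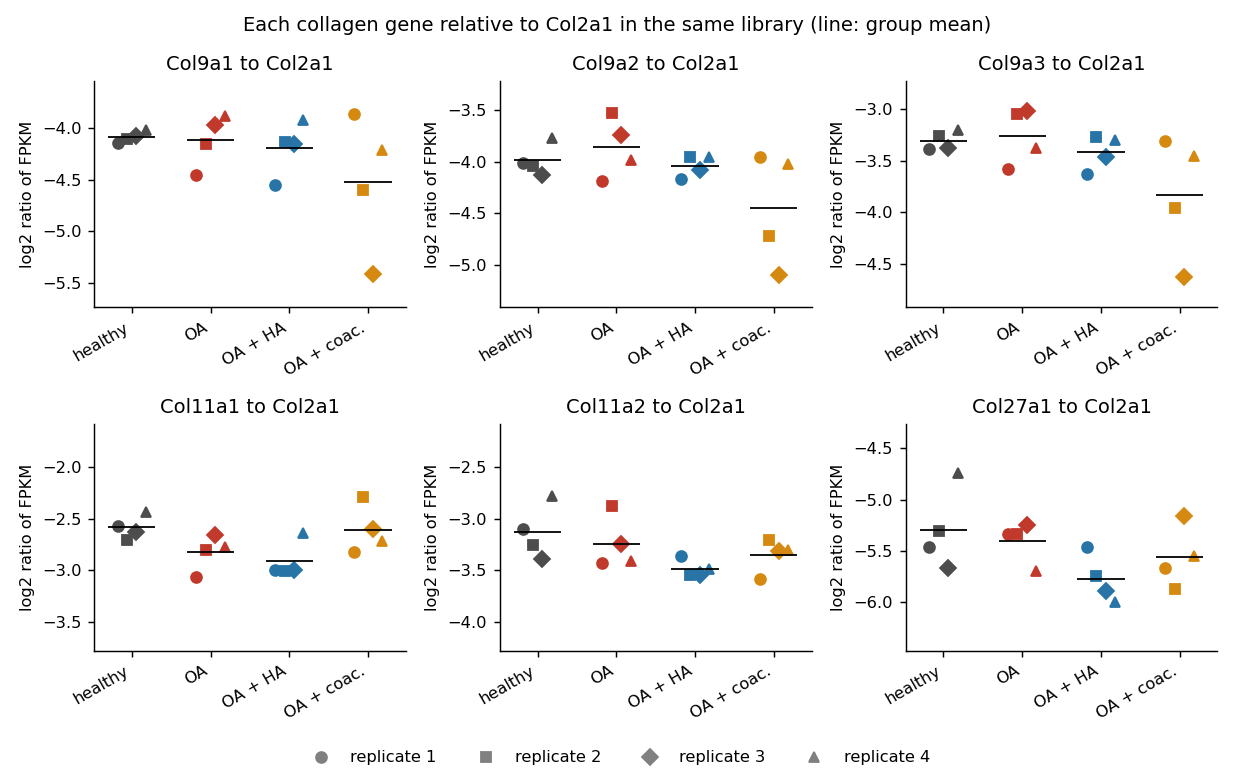
Log2 ratio of FPKM to Col2a1 (y axis, each panel spanning the same number of log2 units) for 6 collagen genes by group, with 1 point per library, the replicate as marker shape and a line at the group mean. Coacervate replicates 2 and 3 lie below all other libraries in the 3 type IX panels. In the Col11a1 panel they are at -2.29, the highest of all libraries, and -2.60.

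Leaving out coacervate replicates 2 and 3, a choice made after their values were seen, moved the coacervate against osteoarthritic log2 fold changes to 0.10 (Col9a1), -0.05 (Col9a2) and -0.05 (Col9a3), and Col2a1 from -0.28 to -0.01. The low type IX mean of the coacervate group thus rested on 2 of its 4 libraries. Other cartilage genes were split in these libraries. Hapln1, the link protein that ties aggrecan to hyaluronan, was at 159, 66.3, 50.1 and 109 CPM in coacervate replicates 1 to 4, and Matn3, a matrilin that bridges collagen IX and other matrix proteins, was at 18.7, 9.13, 5.37 and 13.1 CPM. Both had their lowest values of all 16 libraries in replicates 2 and 3. Ihh, a signal of prehypertrophic chondrocytes, was at 3.01, 0.797, 0.716 and 2.92 CPM, again lowest there, whereas Acan, the aggrecan core protein, was at 203, 134, 175 and 197 CPM and Comp, a pentameric matrix protein, at 457, 404, 706 and 318 CPM.

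Markers of other tissues moved with the same libraries. Skeletal muscle markers (6 of 8 in the table) summed to 8791 and 18663 CPM in coacervate replicates 2 and 3, against 3458 to 8421 CPM in all the others. The fibroblast and synovium sum was 3376 and 5290 CPM in replicates 2 and 3 and 2666 and 2022 CPM in replicates 1 and 4. The osteoclast sum was 971 and 861 CPM in replicates 2 and 3, the 2 lowest of all 16 libraries, the next being 1163 CPM. Calcr, a gene of that list, had its highest group mean with coacervate (4.56 CPM), while each other gene of the list had its lowest there. The chondrocyte sum, at 2654 CPM, was the highest of all 16 libraries in replicate 3 and was 1728 CPM in replicate 2. Most of the sum in replicate 3 came from 2 of its 12 genes, Prg4 (1263 CPM), the lubricin of joint surfaces that synovium also makes, and Comp (706 CPM), each at its highest of all libraries, while Hapln1 and Matn3 were at their lowest there. The hypertrophic chondrocyte sum, at 646 CPM over 6 genes, was the lowest of all in replicate 3. Col1a1 exceeded Col2a1 in FPKM by 6.93 and 8.06 times in replicates 2 and 3, beside 2.95 to 5.21 times in the other 14 libraries. The part of any of these in the low type IX values was not tested.

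Between libraries the 7 genes moved together. Over 16 libraries, log2 normalised CPM of Col2a1 correlated with Col11a1 at Pearson r = 0.901 (Spearman rho = 0.841) and with Col11a2 at r = 0.901 (rho = 0.862). With Col9a1, Col9a2 and Col9a3 it correlated at r = 0.856, 0.810 and 0.813 (rho = 0.888, 0.950 and 0.944), and with Col27a1 at r = 0.759 (rho = 0.782). The permutation p, adjusted over the 6 relations, was 2e-05 for each Pearson r except 0.00069 for Col27a1, and the adjusted p of rho ran from 2e-05 to 0.0006. The smallest p that 100000 permutations can give is 1e-05. Without the 2 libraries farthest from the median of Col2a1, coacervate replicate 3 and osteoarthritic replicate 2, r was 0.692 to 0.886, and on deviations from the group means it was 0.813 to 0.942. All values of a library come from the same RNA and share its scaling. The permutation treats the libraries as exchangeable, though their tissue content differed. How many other genes correlate as strongly with Col2a1 was not counted. The p-values thus do not show that the relation is particular to these genes.

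The 3 type IX chains were the closest to one another, with r from 0.961 to 0.991, and 0.966 to 0.988 on deviations from the group means. Their relation to Col11a1 was looser, at r = 0.660 to 0.800, and became 0.862 to 0.931 without coacervate replicates 2 and 3. The log2 ratio of Col9a2 to Col9a3 kept between group means of -0.68 and -0.60, with SDs of 0.06 to 0.12. The log2 ratio of Col11a1 to Col11a2 averaged 0.55 ± 0.17 in the healthy group and 0.42 ± 0.26 in the osteoarthritic group, and it was 0.58 ± 0.20 with HA and 0.74 ± 0.14 with coacervate (SD, n = 4). The coacervate to osteoarthritic difference of 0.32 in that ratio had an exact permutation p of 0.0857 and an adjusted p of 0.579. Over all 21 pairs r ran from 0.619 to 0.991, and the 2 lowest values were those of Col27a1 with Col11a1 and with Col9a1 (0.619 and 0.632).

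**Figure D4:**
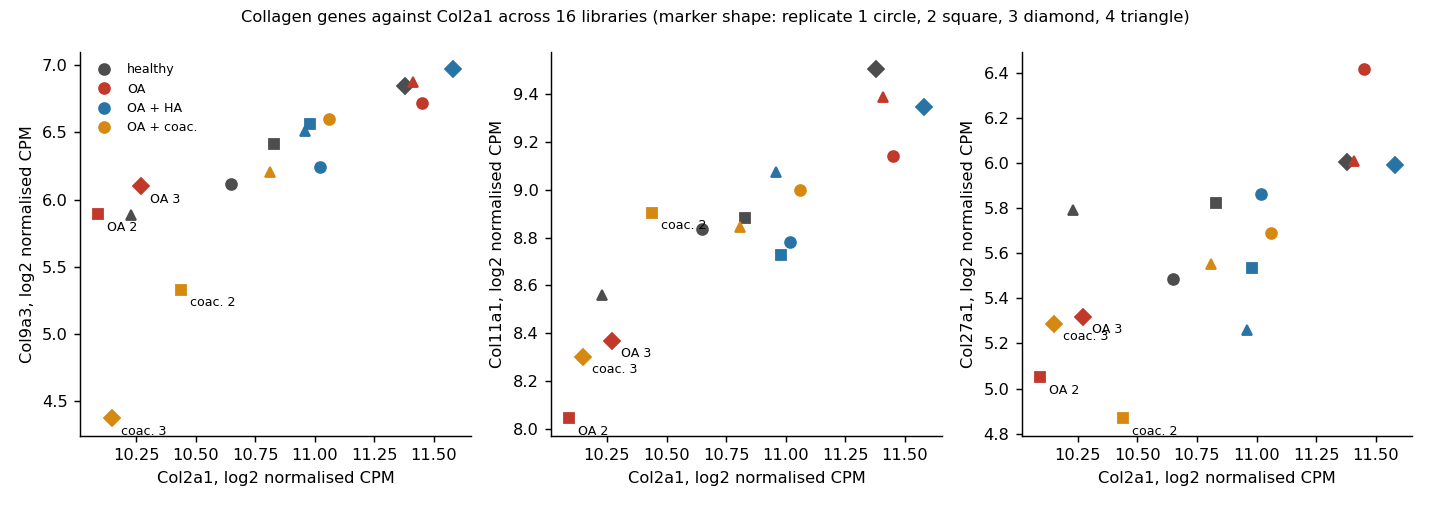
Col9a3, Col11a1 and Col27a1 (y axes) against Col2a1 (x axis), all in log2 normalised CPM, with 1 point per library, the group as colour and the replicate as marker shape. Coacervate replicates 2 and 3 fall below the trend of the other libraries for Col9a3. For Col11a1, replicate 2 is the highest of all libraries relative to Col2a1, and replicate 3 lies within the range of the others. The r with Col2a1 is 0.813, 0.901 and 0.759.

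Since the genes of types IX and XI moved together with Col2a1, the 250 bases before the start site of 4 of them are shown, from RefSeq on build GRCr8, in the direction of the gene. RefSeq entries were matched for 5 of the 7 genes (Col9a1, Col9a2, Col11a1, Col11a2 and Col27a1). The 4 motifs searched on both strands are in capitals, and a match on the opposite strand appears as its reverse complement. The first was ACAAT, the core recognised by SOX factors such as SOX9, which drives cartilage collagen genes. The second was the TATA box, searched with the letters TATAAA. The third was the CCAAT box, searched with those letters alone. The fourth was the GC box, a site of ubiquitous activators such as SP1, searched as GGGCGG. The Col9a1 window is chr9:34081114-34081363 (+), Col9a2 chr5:139892548-139892797 (+), Col11a1 chr2:204508886-204509135 (+) and Col11a2 chr20:4817649-4817898 (-).
Col9a1: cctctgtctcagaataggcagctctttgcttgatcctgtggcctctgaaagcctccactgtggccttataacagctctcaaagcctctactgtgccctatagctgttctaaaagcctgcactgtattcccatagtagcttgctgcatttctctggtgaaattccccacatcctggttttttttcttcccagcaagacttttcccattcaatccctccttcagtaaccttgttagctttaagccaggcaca
Col9a2: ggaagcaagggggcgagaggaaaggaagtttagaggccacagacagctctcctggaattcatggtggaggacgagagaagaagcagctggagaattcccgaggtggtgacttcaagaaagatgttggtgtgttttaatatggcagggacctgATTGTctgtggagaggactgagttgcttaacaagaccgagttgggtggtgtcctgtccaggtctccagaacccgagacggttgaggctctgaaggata
Col11a1: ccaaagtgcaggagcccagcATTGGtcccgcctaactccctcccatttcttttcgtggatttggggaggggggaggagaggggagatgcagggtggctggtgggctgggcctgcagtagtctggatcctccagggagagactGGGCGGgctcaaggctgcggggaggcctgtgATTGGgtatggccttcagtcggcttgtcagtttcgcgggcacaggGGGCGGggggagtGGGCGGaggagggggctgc
Col11a2: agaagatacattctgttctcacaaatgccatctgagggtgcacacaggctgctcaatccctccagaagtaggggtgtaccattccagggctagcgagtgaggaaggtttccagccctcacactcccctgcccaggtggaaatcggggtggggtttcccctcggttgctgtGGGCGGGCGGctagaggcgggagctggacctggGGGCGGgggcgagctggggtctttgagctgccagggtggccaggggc

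The Col11a1 and Col11a2 windows each held 3 GGGCGG matches, with 2 overlapping in Col11a2. The Col27a1 window, not shown, held 1, 85 bases before the start. That motif occurs in 30.5% of 33469 promoters of the same length. Col11a1 also held CCAAT on the opposite strand at 230 and 77 bases before the start, a motif in 34.0% of promoters. Col9a2 held 1 ACAAT match on the opposite strand, 98 bases before the start (30.0% of promoters), and Col9a1 held none of the 4 motifs. TATAAA, found in 12.9% of promoters, was in none of the 5 windows. GC content was 46.8% for Col9a1, 52.0% for Col9a2, 65.6% for Col11a1, 62.8% for Col11a2 and 58.8% for Col27a1, beside a median of 51.2% over all promoters. These matches describe letters in the windows only.

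Across all tested genes other than the 7, the ones whose log2 CPM was most like the mean of the 7 standardised profiles were ranked by Pearson r over 16 libraries, from 12137 genes with an established symbol. The first 10 were Chadl (r = 0.912), Smpd3 (0.896), Ca12 (0.871), Wdr62 (0.858), Aplf (0.845), Matn3 (0.833), Panx3 (0.819), Col10a1 (0.797), Acy3 (0.792) and A2m (0.792). Chadl encodes a cartilage leucine-rich protein that binds collagen, Matn3 a cartilage matrilin and Col10a1 the collagen of hypertrophic cartilage. Panx3 encodes a channel of maturing chondrocytes and osteoblasts, and Smpd3 a sphingomyelinase needed for normal skeletal mineralisation. All 10 were among the first 50 when osteoarthritic replicates 2 and 3 were left out, but only Smpd3 was when coacervate replicates 2 and 3 were left out, where its r was 0.894. The order of likeness thus depended on those 2 coacervate libraries, while r itself fell little for some genes and further for others. Without them r was 0.849 for Wdr62 (rank 62), 0.844 for Chadl (rank 71) and 0.647 for A2m (rank 1545).

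The genes that supply, process, bind and degrade these collagens were taken as a list of 76, of which 67 were tested. In osteoarthritic against healthy cartilage 1 of 67 rose and none fell, beside 0.502% of all genes called in either direction. That gene was P4ha3, a subunit of the prolyl 4-hydroxylase that stabilises the collagen helix, at 4.12, 5.11, 5.01 and 4.33 CPM in healthy and 6.61, 7.96, 7.66 and 8.88 CPM in osteoarthritic libraries. The 2 groups did not overlap, and the log2 fold change was 0.74 ± 0.14 (adjusted p = 0.0290, edgeR). It passed under 16 of 27 alternatives, where adjusted p ran from 6.63e-06 to 0.179, and did not pass without any 1 of the healthy libraries (0.0529 to 0.104), without osteoarthritic replicate 3 or 4 (0.0649 and 0.0562) or with limma on log2(FPKM + 1) (0.133). With a replicate block its adjusted p was 0.0800 (edgeR). P4ha3 was at 5.32 to 6.04 CPM in the HA-treated libraries and at no less than 4.78 CPM in the coacervate-treated ones, none of which reached the lowest osteoarthritic library, with log2 fold changes of -0.47 ± 0.14 against osteoarthritic in each and adjusted p of 0.745 and 0.119 (edgeR). Both treatments share the osteoarthritic libraries as reference. The median log2 fold change of the 67 was 0.19 in osteoarthritic against healthy cartilage, with 52 above 0, beside 0.01 over all genes, of which 7466 of 14337 were above 0. The number of the 67 called in that comparison was 4 by DESeq2, 4 without osteoarthritic replicate 1 and 9 without osteoarthritic replicates 2 and 3. Over all 14337 genes the same fits called 418, 1122 and 164.

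By role, none of 5 transcription factors passed against healthy or osteoarthritic cartilage, and Sox9, the master regulator of cartilage collagen genes, had a log2 fold change of -0.56 ± 0.33 in osteoarthritis and 0.58 ± 0.33 with coacervate (adjusted p = 0.383 and 0.310, edgeR). Without osteoarthritic replicate 1, Sox9 passed in both, at -1.06 and 1.08, where 1122 and 2054 of all 14337 genes passed. Of 20 genes of chain modification and folding, P4ha3 alone passed, and Serpinh1, the collagen chaperone HSP47, had 0.49 ± 0.15 in osteoarthritis and -0.45 ± 0.15 with coacervate (adjusted p = 0.170 and 0.139, edgeR). Crosslinking enzymes (5 tested) had a median of 0.63 in osteoarthritis with none past the threshold, Lox being at 0.88 ± 0.29 (adjusted p = 0.189, edgeR). Among 19 fibril partners none passed, with Comp at 0.75 ± 0.22 (adjusted p = 0.166) in osteoarthritis, and Matn3 at -0.64 ± 0.33 (adjusted p = 0.258) with coacervate (edgeR). Propeptide proteinases and their enhancers (5), receptors (7) and collagenolytic enzymes (6) had none past the threshold either, and Mmp13, the main type II collagenase, was at -0.64 ± 0.23 in osteoarthritis (adjusted p = 0.205, edgeR) and passed at -0.80 without osteoarthritic replicate 1.

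With HA and with coacervate, 0 of the 67 list genes passed against osteoarthritic cartilage, with medians of 0.02 and -0.11 beside -0.01 over all genes in each. With coacervate, 7 passed without osteoarthritic replicate 1, 2 without replicate 4 and 4 by DESeq2. Over all 14337 genes the same fits called 2054, 1368 and 797. The other fibrillar collagens, which build fibres of bone, skin and fibrous tissue, had 0 of 6 past the threshold in any of the 6 comparisons between groups, and Col3a1 was at 1.56 ± 0.37 in osteoarthritis (adjusted p = 0.0741, edgeR). Col3a1 passed by DESeq2 and without osteoarthritic replicate 1, osteoarthritic replicate 2 or coacervate replicate 3 (1.43, 1.78 and 1.56), and at 2.03 without osteoarthritic replicates 2 and 3. Its healthy libraries held 708 to 1212 CPM and its osteoarthritic ones 1555 to 4521 CPM, without overlap, unlike any of the 7 cartilage collagens. No test was made of the list as a whole.

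**Figure D5:**
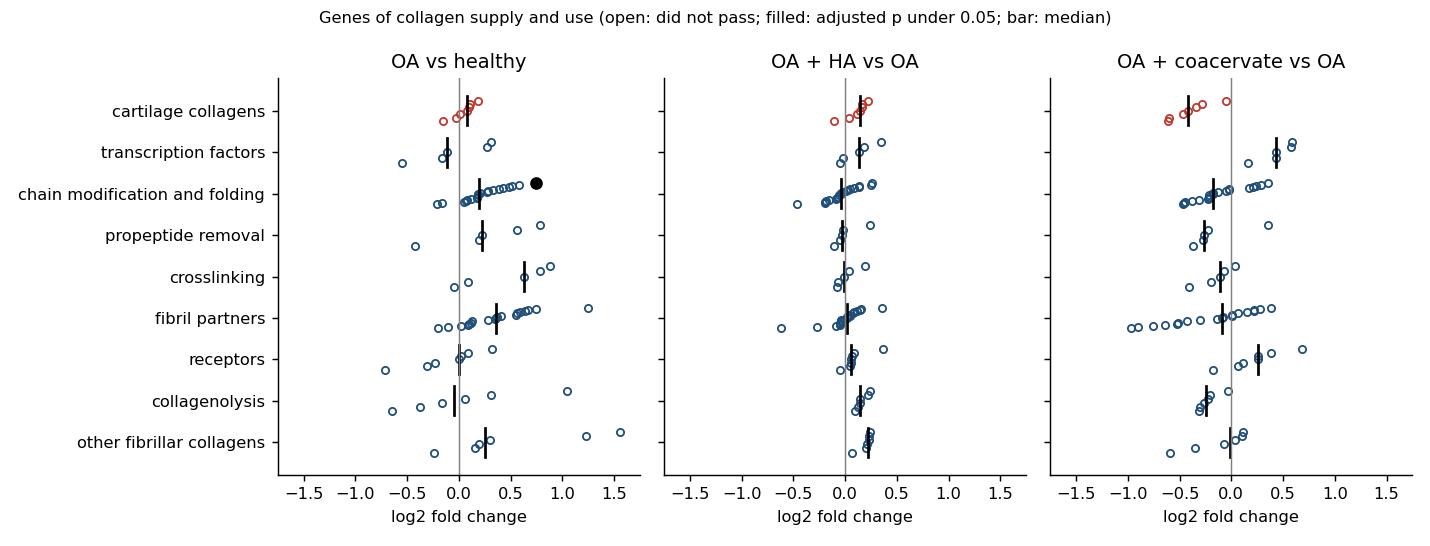
Log2 fold change (x axis, edgeR) of every tested gene of the collagen lists (y axis, 1 row per list) in 3 comparisons, with a bar at each list's median. Only P4ha3, filled, passed the threshold (0.74, osteoarthritic against healthy), and the 7 cartilage collagens in the top row are open in all panels.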

How the data were processed

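Per the labels' protocols, total RNA was selected with oligo(dT) beads and made into libraries whose second strand was marked and removed, and fragments were read from both ends. Named without a role in the submitters' processing notes were build rn6, edgeR, DESeq2, StringTie 2.1.6, HISAT2 2.2.1 and cutadapt 1.9. The counting tool and its strand setting are not given in the sources used here. Per the file headers, the deposited table gives a raw count and an FPKM for each gene and library. The authors scaled the deposited FPKM to gene length and library size. Counts of 2 were commoner than counts of 3 (6480 against 4576 values), which alone cannot show whether both mates of a pair were counted.

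Genes were tested if 4 or more of the 16 libraries had an FPKM of 1 or more (14337, all 7 collagens among them). EdgeR 4.0.16 (R 4.3.3) fitted the 4 group means to the counts with TMM scaling, and p-values were adjusted over all tested genes at 0.05. Normalised CPM are counts over effective library size, and log2 levels use a prior count of 2. Limma 3.58.1, limma-voom, DESeq2 1.42.0, other scalings and filters, and fits without single libraries were alternatives. Ratios were tested by exact permutation over 70 assignments and correlations by 100000 permutations in python 3.11.15, with Benjamini-Hochberg adjustment. Scripts were tested on simulated data. Marker sums add normalised CPM. The 10 most alike genes were named by a stated rule of rank, and the pathway genes given are those that passed plus others, like the markers named singly, chosen by role after their values were seen. The collagens and all gene lists were chosen with earlier results of these data known.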

Additional observations from a re-analysis of the deposited data

Results flagged for a closer look

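Of 64 sets of 4 libraries screened for a single value far from the rest, 2 were picked out, and chance picks out about 1 in 20. Col2a1 in HA replicate 3, at 3069 CPM, stood above the other HA-treated libraries, which held 1989 to 2080 CPM. The Col11a1 to Col2a1 log2 ratio of HA replicate 4, at -2.64, stood above a group mean of -2.91 ± 0.18 (SD, n = 4).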

How the results depend on the processing

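None of the 7 collagens passed in any of the 6 comparisons between groups under any of 28 alternatives, the one without coacervate replicates 2 and 3 being chosen after seeing the data. The replicate numbers showed no sign of pairing, since 4 of 24 same-number pairs correlated over 0.1 (range -0.39 to 0.21). Pairs of other numbers ranged from -0.305 to 0.348. The check cannot exclude pairing, because deviations from group means also carry differences in tissue content. With a replicate block 0 collagens passed, and 26 genes in place of 72 passed in osteoarthritic against healthy. Over all genes, DESeq2 called 418, limma on log2(FPKM + 1) 21 and the fit without osteoarthritic replicate 1 called 1122 in that comparison. For coacervate against osteoarthritic they were 797 by DESeq2, 0 without a low-value filter and 2054 without osteoarthritic replicate 1, in place of 21. Of 784 collagen fold changes under alternatives, 58 changed sign, and the cause was not tested.

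For osteoarthritic against healthy, log2 fold changes of the other sign were -0.099 (Col2a1), -0.12 (Col9a1), -0.047 (Col9a3) and -0.17 (Col27a1) with limma on log2(FPKM + 1). With log2(FPKM + 0.1) they were -0.099, -0.13, -0.050 and -0.21. A replicate block gave -0.038 (Col9a1) and -0.065 (Col27a1), and limma-voom -0.070 (Col27a1). Without osteoarthritic replicates 2 and 3, Col11a1 was 0.28 and Col11a2 0.35. Leaving out 1 library gave -0.12 to 0.35 (Col2a1), -0.25 to 0.33 (Col9a1), -0.064 to 0.31 (Col9a3), -0.38 to 0.076 (Col11a1), -0.18 to 0.14 (Col11a2) and -0.27 to 0.21 (Col27a1).

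For HA against osteoarthritic, the fit without osteoarthritic replicates 2 and 3 gave -0.27 (Col2a1), -0.30 (Col9a1), -0.23 (Col9a2), -0.21 (Col9a3), -0.26 (Col11a1) and -0.34 (Col11a2). Col27a1 was 0.083 and 0.11 with the 2 limma pseudocounts. Leaving out 1 library gave -0.048 to 0.48 (Col9a1), -0.037 to 0.27 (Col9a2), -0.018 to 0.29 (Col9a3), -0.031 to 0.39 (Col11a1), -0.13 to 0.19 (Col11a2) and -0.30 to 0.16 (Col27a1).

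For coacervate against osteoarthritic, Col11a1 was 0.13 and 0.14 with the 2 limma pseudocounts, 0.033 with limma-voom and -0.25 to 0.18 without 1 library. Without coacervate replicates 2 and 3, Col9a1 was 0.10 and Col11a1 0.077, and the Col9a1 to Col2a1 ratio differed by 0.078. The Col11a2 to Col2a1 ratio differed by 0.074 without osteoarthritic replicates 2 and 3 and by -0.17 to 0.016 without 1 library.

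Of the collagen pathway genes, osteoarthritic against healthy called 4 by DESeq2, 9 without osteoarthritic replicates 2 and 3, 0 with limma on log2(FPKM + 1) or log2(FPKM + 0.1), with only the 2 groups or with a replicate block, and 0 to 4 without 1 library. Over all genes it called 418 by DESeq2, 164 without osteoarthritic replicates 2 and 3 and 15 to 1122 without 1 library. Coacervate against osteoarthritic called 4 by DESeq2 and 0 to 7 without 1 library, beside 797 and 0 to 2054 of all genes.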
